A study of Mus musculus with 6 samples.

Results

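The 10 genes described here encode the 5 NF-kB subunits (Nfkb1, Nfkb2, Rel, Rela and Relb), 3 inhibitors that bind them (Nfkbia, Nfkbib and Nfkbie), the ubiquitin-editing enzyme Tnfaip3 and the kinase Ikbkb. They were taken by name from a table of 46983 genes, and all 10 passed the filter on low counts that 14450 genes passed. The cells were C2C12, a mouse line whose myoblasts fuse into myotubes, wild type and differentiated for 7 days in low-serum medium. Messenger RNA was sequenced after the cells had spent 24 h with 1e-07 M corticosterone, the glucocorticoid that the rodent adrenal chiefly releases (libraries C1, C2 and C3), or with ethanol at 1 µL/mL (libraries V1, V2 and V3). Each treatment thus had 3 libraries, called independent biological replicates by the submitters, and the model is a single clonal line in culture without other tissue cells.

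NF-kB subunits pair with each other and switch on genes of inflammation, survival and stress. In resting cells the IkB proteins encoded by Nfkbia, Nfkbib and Nfkbie hold the pairs in the cytoplasm until the IkB kinase, of which Ikbkb encodes the beta subunit, marks them for destruction. Several of the genes that NF-kB switches on encode its own inhibitors, so the pathway damps itself, and Nfkbia is also among the genes that glucocorticoids are known to induce. In muscle, NF-kB is known for its part in wasting and for opposing the differentiation of myoblasts.

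In these libraries, glucocorticoid-induced genes went against 2 labels. Fkbp5, Tsc22d3 and Per1 were high in C1, C3 and V2 and low in C2, V1 and V3 (Fkbp5 at 151, 135 and 177 against 36.9, 36.9 and 35.4 CPM, which are counts scaled to a common library size by TMM). Whether the labels of C2 and V2 were exchanged cannot be told from the files, so each difference by label below is one between libraries as labelled. The 10 genes are therefore given in every library, by label and also with C1, C3 and V2 set beside C2, V1 and V3. The second order of the libraries rests on measured values and not on labels, so it is given as a description with no mean and no test. Over all genes, each library lay nearest to 1 other that in turn lay nearest to it: C1 with V3, C2 with C3 and V1 with V2. Total counts were 23877583 to 29928653 per library, and the 10 genes had 301 to 5246 counts in a library. Of 7 leukocyte markers, Ptprc and Adgre1 had no count in any library, which allows up to 0.125 CPM, and the 7 summed to 7.16 to 9.93 CPM by the corticosterone label and 7.06 to 8.91 by the vehicle label. Summed over 7 myotube markers, CPM was 9882 to 10686 by the corticosterone label and 7274 to 10248 by the vehicle label. All 7 had a positive log2 difference, corticosterone minus vehicle, beside 50.8% of all genes tested, with a median of 0.20. Summed over 6 myoblast and cell cycle markers, CPM was 210.3 to 225 by the corticosterone label against 245 to 251, without overlap. The 4 cycle genes of this list (Mki67, Top2a, Ccnb1 and Cdk1) had lower means by the corticosterone label, whereas the myoblast genes were at 58.1 ± 7.67 against 54.6 ± 7.79 CPM for Pax7 and 23.0 ± 9.70 against 20.8 ± 2.22 CPM for Myf5 (SD, n = 3 each). The part of any of these lists in the values below was not tested. In RNA from whole cultures, fewer cells of a kind and less of an RNA per cell cannot be told apart.

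Upstream sequences are shown for 4 of the genes. Nfkbia, Nfkb2 and Tnfaip3 are known NF-kB targets that had higher means by the corticosterone label, and Rel carried a match and differed little. Nfkbie also carried a match and differed by 0.29 on the log2 scale, beside 0.28 for Tnfaip3, but its sequence is not shown. Whether matches and differences go together was not tested. RefSeq windows (GRCm38.p6) were matched for 7 of the 10 genes, with 10 start sites in all, and the 250 bases before each start were searched on both strands for the kappa B consensus, the decamer that NF-kB binds. Nfkb1, Relb and Ikbkb had no entry. The starts are those of RefSeq, whereas the gene coordinates given below are from GENCODE. By those coordinates the window shown for Nfkb2 lies inside the gene, and nearly all of that shown for Tnfaip3 does too. Capitals mark the matches, including those on the opposite strand, and overlapping matches are joined.
Nfkbia (chr12:55492648-55492897, minus strand): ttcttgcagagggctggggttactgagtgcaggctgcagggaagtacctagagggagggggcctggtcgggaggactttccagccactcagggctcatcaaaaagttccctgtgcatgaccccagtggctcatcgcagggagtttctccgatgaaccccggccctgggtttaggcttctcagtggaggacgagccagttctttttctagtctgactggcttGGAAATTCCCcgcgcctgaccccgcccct
Nfkb2, first start (chr19:46304487-46304736, plus strand): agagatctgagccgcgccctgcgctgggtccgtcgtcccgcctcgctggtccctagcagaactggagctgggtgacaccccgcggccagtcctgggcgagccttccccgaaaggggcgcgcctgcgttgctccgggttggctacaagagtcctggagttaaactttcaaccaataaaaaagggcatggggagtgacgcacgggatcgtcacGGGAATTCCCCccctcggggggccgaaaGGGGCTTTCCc
Tnfaip3, first start (chr10:19015411-19015660, minus strand): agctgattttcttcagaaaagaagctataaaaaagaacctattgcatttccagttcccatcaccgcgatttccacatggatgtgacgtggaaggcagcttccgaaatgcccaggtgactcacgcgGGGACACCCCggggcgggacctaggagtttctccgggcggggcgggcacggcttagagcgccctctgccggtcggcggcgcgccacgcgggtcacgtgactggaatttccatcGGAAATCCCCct
Rel (chr11:23770970-23771219, minus strand): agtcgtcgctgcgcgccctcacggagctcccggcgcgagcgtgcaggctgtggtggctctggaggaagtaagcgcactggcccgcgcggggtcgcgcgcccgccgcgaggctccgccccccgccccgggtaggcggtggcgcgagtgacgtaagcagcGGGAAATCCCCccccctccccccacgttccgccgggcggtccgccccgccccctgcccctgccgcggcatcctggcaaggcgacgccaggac

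The match before Nfkbia reads GGGAATTTCC on the opposite strand and lies 20 to 29 bases before the start. Nfkb2 had a palindromic match, GGGAATTCCC, 30 to 39 bases before its first start and a second, GGGGCTTTCC, 2 to 11 bases before it. Before Tnfaip3 the matches were GGGACACCCC at 116 to 125 bases and, on the opposite strand, GGGGATTTCC at 3 to 12 bases. A match stood in 7 of the 10 windows and in 5 of the 7 genes, beside 3.9% of 32851 windows of this length, and Rela and Nfkbib had none. GNACANNNTGTNC, a form of the glucocorticoid response element, was in 0 of the 10 windows and in 0.387% of all. A match is a run of letters and not a measured binding site.

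Levels were compared between genes as CPM per kb of the longest coding transcript, over the 6 libraries. Nfkb2, which encodes p100, the precursor of the p52 subunit, stood at 36.3 ± 7.35 CPM per kb (SD, n = 6), and Rela, which encodes the activating subunit p65, at 32.4 ± 1.90. The ranges of these 2 overlapped, and both lay above Nfkb1, the gene of the p105 precursor of p50, at 24.4 ± 0.523. Nfkbia stood at 18.4 ± 5.60, Ikbkb at 15.7 ± 1.56 and Relb, the partner of p52, at 14.1 ± 1.45. Nfkbib stood at 11.6 ± 1.02 and Tnfaip3 at 9.89 ± 1.55, and from Nfkb1 down to Tnfaip3 each gene overlapped its neighbour. Nfkbie at 6.19 ± 1.42 and Rel, the gene of c-Rel, at 2.20 ± 0.181 lay apart from the others and from each other. With length taken over all annotated exons, Nfkb1 stood at 8.32 ± 0.179 CPM per kb, below Nfkbia and Nfkbib, and Ikbkb stood at 3.28 ± 0.326, below Nfkbie at 4.95 ± 1.13. On that scale Nfkbie overlapped both Tnfaip3, at 6.06 ± 0.948, and Ikbkb, and Rel alone lay apart at the low end. By mean, the order between the highest genes, Nfkb2 and Rela, and the lowest, Rel, thus depends on the length used. By range, Nfkbia reached the highest genes on both scales. It reached 28.3 CPM per kb of coding transcript, above the lowest Nfkb2 value of 27.4. Over all exons it reached 27.8, above the lowest Rela value of 26.8.

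By label, no gene of the 10 passed the edgeR quasi-likelihood test with Benjamini-Hochberg adjustment at 0.05, where 0 of all 14450 genes tested passed (0%). At an unadjusted p under 0.05 there were 2 of the 10, Nfkb2 and Nfkbia, both higher by the corticosterone label, where 5.55% of all genes were higher at that p and 11.8% differed in either direction. DESeq2 called 0 of the 10, beside 138 of all genes tested (0.955%), and limma-voom called 0 of the 10 and 0 of all (0%). The log2 difference, corticosterone minus vehicle, was above 0 for 9 of the 10 (8 with library totals or upper quartile scaling, where Nfkb1 turned) and for 50.8% of all genes. The median was 0.14 over the 10 and 0.004 over all genes tested. Without C2, 7 of the 10 were above 0, with a median of 0.12.

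**Figure D1:**
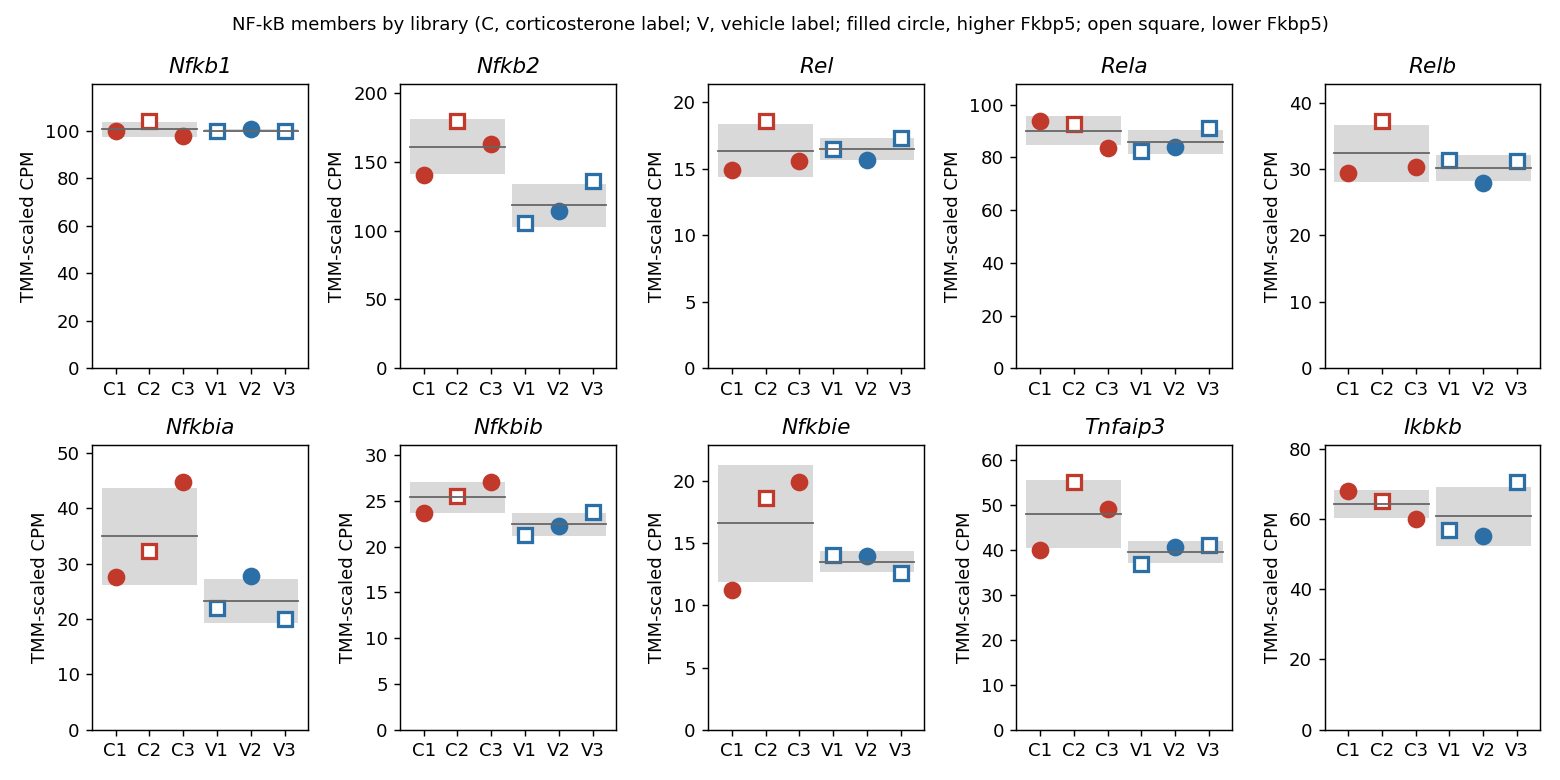
TMM-scaled CPM (vertical axis, from 0) of each of the 10 genes in the 6 libraries, with the mean (line) and SD (band) of each label. C1 to C3 carry the corticosterone label and V1 to V3 the vehicle label, filled circles are the libraries with higher Fkbp5 and open squares those with lower. Nfkb2 is the gene whose 3 corticosterone-labelled values, 141 to 180 CPM, all lie above the vehicle-labelled values, 105 to 136 CPM. Of all genes tested, 8.41% lie apart in this direction.

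Among the subunits, Nfkb2 (ENSMUSG00000025225, GRCm38 chromosome 19, 46304320 to 46312385, plus strand) had the largest difference. It stood at 141 CPM in C1, 180 in C2 and 163 in C3, and at 105 in V1, 114 in V2 and 136 in V3. The lowest corticosterone-labelled library was thus just above the highest vehicle-labelled one, and these 2, C1 and V3, are a nearest pair. Nfkb2 was the 1 gene of the 10 without overlap between labels, beside 16.6% of all genes tested in either direction and 8.41% in this one. The log2 difference was 0.44 ± 0.13 (SE, edgeR adjusted p = 0.364, and 0.0996 by DESeq2). Leaving out 1 library gave 0.36 to 0.55, and leaving out C2 and V2 together gave 0.33 ± 0.16 (edgeR adjusted p = 0.775). Of the 4584 exon bases of Nfkb2, 299 are shared with Psd and 531 with the noncoding gene AC114539.1, both on the other strand, so some of its counts may be theirs.

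Nfkb1 (ENSMUSG00000028163, GRCm38 chromosome 3, 135584655 to 135691547, minus strand) varied least of the 10. It was 99.8 CPM in C1, 104 in C2, 97.8 in C3, 99.8 in V1, 101 in V2 and 99.9 in V3, a 1.07-fold range over the 6 libraries. Its log2 difference was 0.007 ± 0.064 (edgeR adjusted p = 0.97). Because it was so flat, the ratio of Nfkb2 to Nfkb1 counts, which no scaling can change, followed Nfkb2. The ratio was 1.41 in C1, 1.72 in C2 and 1.66 in C3, and 1.06 in V1, 1.13 in V2 and 1.36 in V3. It too did not overlap between the labels, with V3 close under C1, and with 3 against 3 libraries an exact permutation test cannot give a two-sided p under 0.1.

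Rela (ENSMUSG00000024927, GRCm38 chromosome 19, 5637483 to 5648130, plus strand) was 93.8 CPM in C1, 92.8 in C2, 83.7 in C3, 82.4 in V1, 83.8 in V2 and 91.1 in V3. C1 and C2 lay above every vehicle-labelled library, whereas C3 lay below V2 and V3, which is where the labels overlapped. The log2 difference was 0.07 ± 0.08 (edgeR adjusted p = 0.719). Relb (ENSMUSG00000002983, GRCm38 chromosome 7, 19606217 to 19629438, minus strand) was 29.4 CPM in C1, 37.3 in C2, 30.3 in C3, 31.3 in V1, 27.9 in V2 and 31.3 in V3. C2 alone stood out, and the log2 difference of 0.10 ± 0.11 (edgeR adjusted p = 0.717) turned to -0.013 without it. Rel (ENSMUSG00000020275, GRCm38 chromosome 11, 23736847 to 23770970, minus strand), at 14.9 to 18.6 CPM, was also highest in C2 and differed by -0.011 ± 0.12 (edgeR adjusted p = 0.975).

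**Figure D2:**
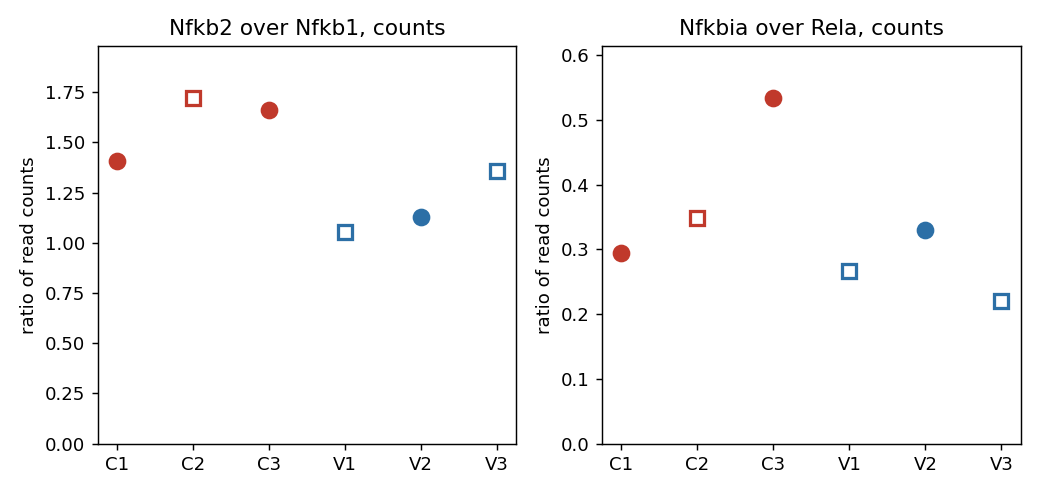
Ratio of read counts (vertical axis, from 0) of Nfkb2 to Nfkb1 and of Nfkbia to Rela in the 6 libraries, with symbols for label (red, corticosterone; blue, vehicle) and for higher (filled circle) or lower (open square) Fkbp5. The first ratio is 1.41 to 1.72 by the corticosterone label and 1.06 to 1.36 by the vehicle label, and the second, highest in C3 at 0.534, overlaps.

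Of the inhibitors, Nfkbia (ENSMUSG00000021025, GRCm38 chromosome 12, 55489410 to 55492647, minus strand) had the widest range, with 2.23-fold more CPM in its highest than in its lowest library. It was highest in C3 at 44.7 CPM, followed by C2 at 32.3, by C1 and V2 at 27.7 each, by V1 at 22.0 and by V3 at 20.04. C1 and V2, of different labels, stood level, which is where the labels overlapped. The log2 difference was 0.58 ± 0.20 (edgeR adjusted p = 0.364, and 0.163 by DESeq2). It rested most on C3, without which it was 0.37 ± 0.16 (edgeR adjusted p = 0.748). With C2 and V2 left out it was 0.78 ± 0.24 (edgeR adjusted p = 0.724). Set against Rela, which encodes the subunit that its product binds, the count ratio was 0.295 in C1, 0.349 in C2 and 0.534 in C3, and 0.266 in V1, 0.330 in V2 and 0.220 in V3. Here V2 lay above C1, so the labels overlapped. Set against the flat Nfkb1, the count ratio was 0.277 in C1, 0.310 in C2 and 0.457 in C3, and 0.220 in V1, 0.275 in V2 and 0.201 in V3. That ratio did not overlap between the labels, but V2 at 0.275 and C1 at 0.277 stood nearly level. Whether these 2 differ beyond counting error was not tested.

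Nfkbib (ENSMUSG00000030595, GRCm38 chromosome 7, 28758251 to 28767512, minus strand), which encodes IkB beta, varied within a 1.27-fold range, from 21.2 CPM in V1 to 27.0 in C3. The corticosterone-labelled libraries were at 23.6 to 27.0 CPM and the vehicle-labelled ones at 21.2 to 23.8, and the log2 difference was 0.18 ± 0.09 (edgeR adjusted p = 0.473). Its exons share 42 bases with Sirt2, a neighbour at 101 CPM on the other strand. Nfkbie (ENSMUSG00000023947, GRCm38 chromosome 17, 45555703 to 45563169, plus strand), the gene of IkB epsilon, was 11.2 CPM in C1, 18.7 in C2, 19.9 in C3, 14.0 in V1, 14.0 in V2 and 12.6 in V3. C1 was the lowest of all 6 libraries, and C2 and C3, a nearest pair, were the highest. The log2 difference of 0.29 ± 0.21 (edgeR adjusted p = 0.589) was 0.51 ± 0.11 without C1 (edgeR adjusted p = 0.127) and 0.14 without C3.

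Tnfaip3 (ENSMUSG00000019850, GRCm38 chromosome 10, 19000910 to 19015657, minus strand) encodes A20, which takes ubiquitin chains off the signalling proteins upstream of the IkB kinase. It was 40.0 CPM in C1, 55.0 in C2, 49.0 in C3, 36.7 in V1, 40.6 in V2 and 41.1 in V3. C2 and C3 lay above every other library, whereas C1 lay among the vehicle-labelled ones. The log2 difference was 0.28 ± 0.12 (edgeR adjusted p = 0.427), and 12% of all genes tested had 1 at least as large in this direction. Without C1 it was 0.40 and without C2 it was 0.17. Ikbkb (ENSMUSG00000031537, GRCm38 chromosome 8, 22659212 to 22706589, minus strand) was 67.9 CPM in C1, 65.1 in C2, 60.1 in C3, 56.8 in V1, 55.2 in V2 and 70.5 in V3, with its highest value in V3. Its log2 difference was 0.08 ± 0.11 (edgeR adjusted p = 0.773), which was 0.19 without V3 and 0.016 without V2.

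The 10 genes were also read library by library, each on the log2 scale against its own mean over the 6 libraries. In C2 all 10 stood above their mean, beside 52.5% of all genes tested, with a median of 0.19 over the 10 and 0.011 over all genes. Of the 10, 5 (Nfkb1, Nfkb2, Rel, Relb and Tnfaip3) had their highest value in C2, beside 17.9% of all genes. C3 held the highest value of 3 (19.3% of all genes), C1 of 1 (13.9%) and V3 of 1 (14.5%), and V1 and V2 of 0 (19.3% and 15.1%). In V2, 1 of the 10 was above its mean, beside 50.6% of all genes, and in V1 there were 2, beside 50.5%, with medians of -0.084 and -0.11. C1, C3 and V3 had 3, 5 and 4 of the 10 above, beside 50.5%, 51.9% and 51% of all genes. These counts were made after the values were seen and carry no test. C2 and V2 are the libraries whose glucocorticoid-induced genes went against the label.

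**Figure D3:**
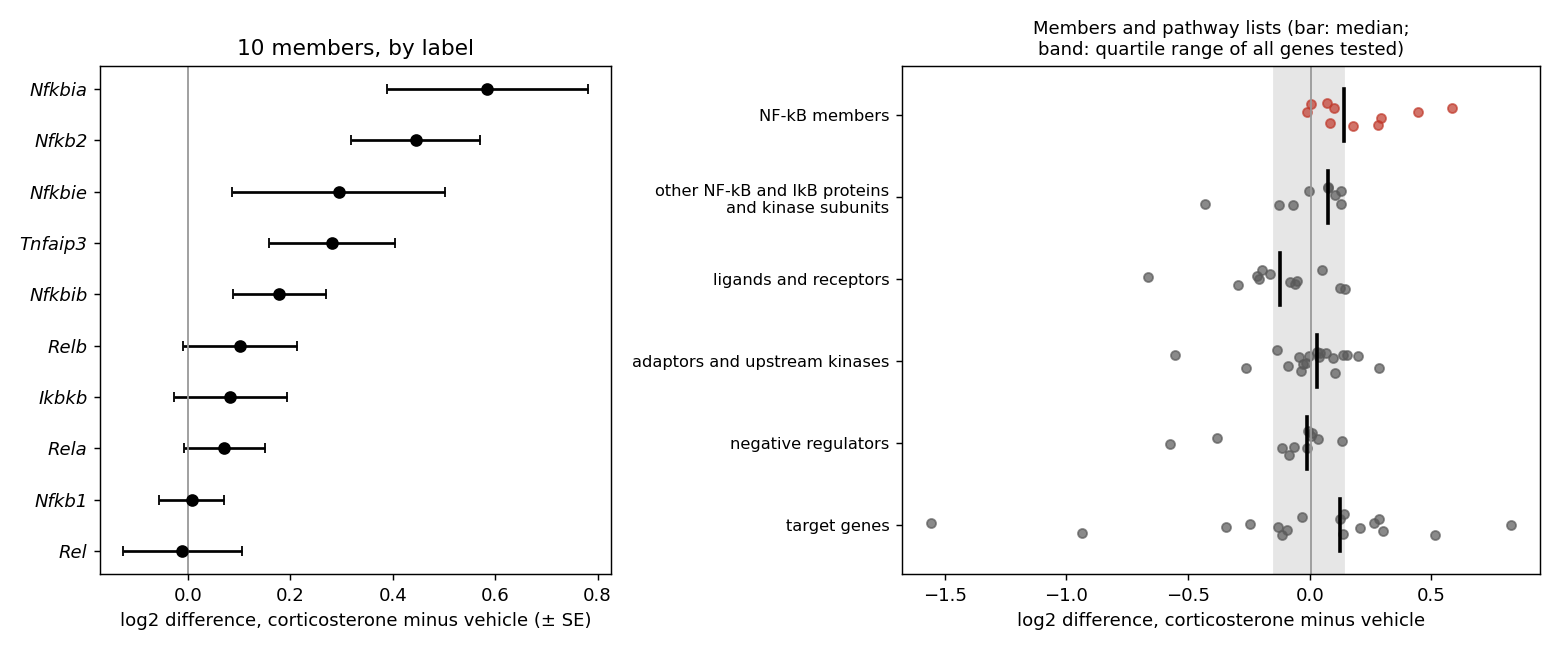
Left, the log2 difference of each of the 10 genes, corticosterone minus vehicle by label, with its SE. Right, the same difference for the 10 genes (red) and for the genes tested in 5 lists of the pathway (grey), with a bar at each median, and a band from the lower to the upper quartile of all genes tested; the 10 genes have a median of 0.14 and the ligands and receptors one of -0.12.

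Read by Fkbp5 level, a different set of the 10 stood apart. Rel was 14.9 CPM in C1, 15.6 in C3 and 15.7 in V2, all below C2 at 18.6, V1 at 16.5 and V3 at 17.3. Relb was 29.4, 30.3 and 27.9 CPM in C1, C3 and V2, all below C2 at 37.3, V1 at 31.3 and V3 at 31.3. The other 8 overlapped, Nfkb2 and Nfkbia among them. So 2 of the 10 did not overlap in this reading, both lower where Fkbp5 was higher, beside 9.63% of all genes tested in either direction and 4.74% in that one, and 0 were higher (4.89% of all genes).

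Within the nearest pairs, Nfkbia differed in 1 direction each time. It was 1.38-fold higher in C1 than in V3, 1.38-fold higher in C3 than in C2 and 1.26-fold higher in V2 than in V1, higher in each case in the library with more Fkbp5. The 95% exact binomial (Clopper-Pearson) intervals of these ratios, which cover counting error alone, were 1.23 to 1.55, 1.27 to 1.51 and 1.13 to 1.41. Nfkbia was the 1 gene of the 10 whose intervals lay on the same side of 1 in all 3 pairs, where 5.24% of all genes tested lay above 1 in this way and 4.47% below it. The use of these intervals was chosen after the values were seen. The ratios of Fkbp5 in the same pairs were 4.28, 3.66 and 4.80, which are above 1 because each pair was ordered by Fkbp5.

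By direction alone, 1 of the 10 was higher in the library with more Fkbp5 in all 3 pairs (20% of all genes tested) and 3 were lower (20.5%), namely Rel, Relb and Ikbkb. The ratios of Relb were 0.941, 0.814 and 0.891 in the pairs C1 to V3, C3 to C2 and V2 to V1, and those of Rel were 0.859, 0.839 and 0.953. The interval of Relb reached 1.04 in the first pair and that of Rel reached 1.09 in the last, so neither ratio was below 1 beyond counting error in every pair. Nfkb2, the 1 gene of the 10 without overlap between labels (16.6% of all genes), had ratios of 1.04, 0.906 and 1.08. Tnfaip3 had ratios of 0.972, 0.890 and 1.11. Neither gene had a common direction.

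**Figure D4:**
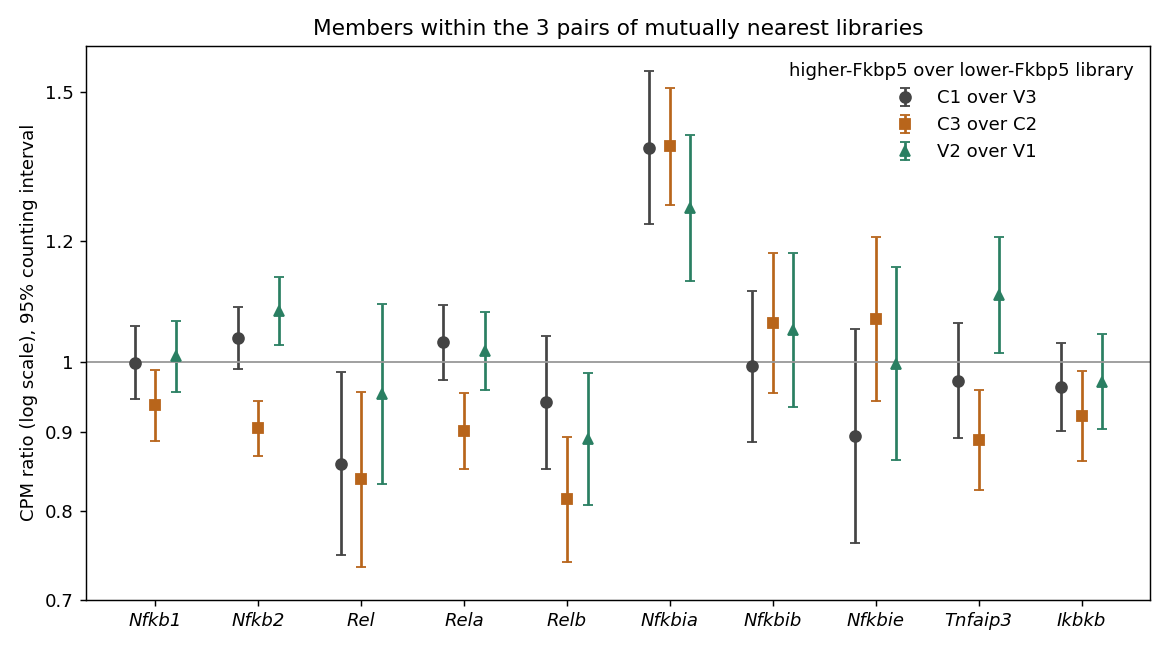
Ratio of CPM (vertical axis, log scale) in the library with more Fkbp5 to that in its nearest library, for each of the 10 genes in the 3 pairs, with 95% counting intervals. Nfkbia lies above 1 in all 3 pairs, at 1.38, 1.38 and 1.26, and the other 9 genes have at least 1 interval that includes 1. Of all genes tested, 5.24% have all 3 intervals above 1 and 4.47% have all 3 below it.

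The rest of the pathway was read from 5 lists of 83 genes, of which 68 passed the count filter and 0 passed the edgeR test (0 also by DESeq2 and by limma-voom, which called 0.955% and 0% of all genes). At an unadjusted p under 0.05, 1 of the 68 was higher by the corticosterone label and 3 were lower, beside 5.55% and 6.26% of all genes tested. The log2 difference was above 0 for 31 of the 68 and the median was -0.01. By label, 2 of the 68 did not overlap and were higher and 4 were lower, beside 16.6% of all genes tested in either direction. By Fkbp5 level, 1 of the 68 did not overlap and was higher and 4 were lower, beside 4.89% and 4.74% of all genes.

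Of the ligands, Tnf had 0 to 2 counts in a library and Ltb had none, and Il1b, the gene of interleukin-1 beta, was at 0.751 to 1.28 CPM. Tnfsf12, another ligand gene, was higher, at 5.31 to 9.26 CPM. Some receptor genes had many more counts, whereas Tnfrsf11a had 0 to 2 and Cd40 had 7 to 38 in a library. Tnfrsf12a, the receptor of the cytokine TWEAK, had the highest CPM of the list at 194 ± 22.1 by the corticosterone label against 225 ± 7.08 CPM (SD, n = 3 each), and Tnfrsf1a, the main TNF receptor, was at 122 ± 9.81 against 129 ± 19.1 CPM. Tlr4, which senses bacterial lipopolysaccharide, was at 41.8 ± 3.44 against 51.2 ± 4.78 CPM. Tlr4 and Tnfrsf12a were the 2 genes of this list without overlap between the labels, beside 16.6% of all genes tested. Their log2 differences were -0.29 ± 0.10 and -0.22 ± 0.10 (edgeR adjusted p = 0.365 and 0.436). Of the 12 tested genes of this list 9 had a negative difference, with a median of -0.12. By pairs, Il1r1, the interleukin-1 receptor gene, was lower in the library with more Fkbp5 each time, with ratios of 0.810, 0.835 and 0.818. All 3 intervals lay below 1, as did those of 4.47% of all genes tested, and Il1r1 was named after its values were seen.

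Among the adaptors and upstream kinases, 10 of 19 had a positive difference. Traf6, the ubiquitin ligase of the interleukin-1 and Toll-like receptor branch, was 30.2 CPM in C1, 19.7 in C2, 19.7 in C3, 36.0 in V1, 34.8 in V2 and 31.6 in V3. C2 and C3 were low together and C1 lay close to V3, its nearest library. The log2 difference was -0.55 ± 0.17 (edgeR adjusted p = 0.364). Tab1, a partner of the kinase TAK1, was at 36.4 ± 2.69 against 43.7 ± 1.33 CPM without overlap (log2 difference -0.26 ± 0.08, edgeR adjusted p = 0.364). Traf6 and Tab1 were the 2 of the 19 without overlap between labels, beside 16.6% of all genes tested. Map3k7, which encodes TAK1 itself, was at 169 ± 10.2 against 152 ± 4.73 CPM, and Tab2 at 138 ± 2.81 against 134 ± 2.86 CPM. Irak4 and Tradd did not overlap when read by Fkbp5 level, as was so for 9.63% of all genes tested in either direction. Both were lower where Fkbp5 was higher (4.74% of all genes). Irak4 was at 12.6 to 14.3 against 15.4 to 16.4 CPM and Tradd at 14.7 to 14.9 against 15.2 to 16.6 CPM. Within the nearest pairs, the counting intervals of Tradd reached 1.13, 1.08 and 1.03, and that of Irak4 reached 1.02 in V2 over V1.

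Of the other NF-kB and IkB proteins and kinase subunits, none of the 9 tested genes stood apart in either reading. The highest CPM were those of Ikbkg, the scaffold of the IkB kinase, at 88.2 ± 1.31 against 88.4 ± 4.32 CPM, and Nkiras2 at 62.7 ± 0.845 against 59.6 ± 6.75 CPM. Of the 11 negative regulators tested, Rnf11 was at 422 ± 9.08 against 441 ± 11.4 CPM and Tax1bp1, a partner of A20, at 206 ± 5.21 against 208 ± 6.57 CPM. N4bp1 was the 1 of them without overlap between labels, beside 16.6% of all genes tested. It was at 144 ± 5.00 against 131 ± 6.05 CPM (log2 difference 0.13 ± 0.07, edgeR adjusted p = 0.49).

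Genes that NF-kB is known to switch on showed no common direction by label, with 9 of 17 positive and a median of 0.12. Csf1, the macrophage growth factor, had the highest CPM at 360 ± 62.2 against 330.3 ± 66.2 CPM, and Vcam1, an adhesion molecule, was at 124 ± 19.2 against 127 ± 26.9 CPM. Il6 was at 0.724 to 2.13 CPM in the 6 libraries. By Fkbp5 level, Bcl2l1, which encodes the survival protein Bcl-xL, did not overlap and was higher, at 121 CPM in C1, 126 in C3 and 126 in V2 against 103 in C2, 91.7 in V1 and 100.4 in V3. Ier3, an immediate early gene, was lower, at 16.2, 13.2 and 13.8 CPM against 18.7, 20.8 and 22.6 CPM. Plau, which encodes urokinase, was also lower, at 62.3, 51.4 and 58.8 CPM against 71.0, 68.1 and 70.2 CPM. So 1 of the 17 was higher without overlap and 2 were lower, beside 4.89% and 4.74% of all genes tested. Within the nearest pairs the intervals of 5 of the 17 targets lay on the same side of 1 in all 3 pairs. Those of Bcl2l1 were above it, as were those of 5.24% of all genes tested. Those of Ier3, Plau, Irf1 and Gadd45b were below it, as were those of 4.47% of all genes, Irf1 with ratios of 0.830, 0.822 and 0.840. Irf1 and Gadd45b were named after their values were seen.

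Genes whose pattern over the 6 libraries was most like that of 3 of the 10 were found among 10639 genes with a mean of at least 5 CPM, by the root mean square difference of log2 CPM centred on each gene's mean. For Nfkbia, whose own SD over the libraries was 0.38, these were Prr32 (difference 0.079), Fam46a (0.097) and Snai1 (0.099). Snai1, a repressor of epithelial genes, was highest in C3 at 72.5 CPM and lowest in V3 at 36.7, as Nfkbia was. For Nfkb2 they were Fblim1 (0.045), Tssc4 (0.047) and Zmat3 (0.049), and for Tnfaip3 they were D8Ertd82e (0.039), 2310022B05Rik (0.051) and Numbl (0.051). The 6 libraries are shared by all genes, so these are descriptions.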

How the data were processed

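Poly(A) RNA of 6 C2C12 libraries was sequenced, and the authors deposited raw read counts, 1 column per library, which were not altered before the fits. Per the submitters' processing notes, mm10, DESeq2 1.24.0, HTSeq 0.6.1 and HISAT2 2.0.5 were used, with no role recorded. The annotation release, filters and strand setting are not stated, so overlapping genes on opposite strands may share counts.

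Labels were compared by edgeR 4.0.16 (R 4.3.3; quasi-likelihood F-test, two-sided, TMM scaling, filterByExpr, Benjamini-Hochberg over 14450 genes, threshold 0.05). edgeR was tested on simulated data. Exon lengths and overlaps came from GENCODE M21 (GRCm38), which held 46488 of the gene identifiers, and upstream sequences from RefSeq. The floor was 3 counts, 0.103 to 0.125 CPM. Log2 CPM used a prior count of 2. In each pathway list, the text names the 2 genes of highest mean CPM and up to 3 genes (mean at least 1 CPM) without overlap in each reading. Other genes named from these lists, among them Tnf, Ltb, Il1b, Tnfsf12, Il6 and Otulin, fall outside this rule. Members, lists and the second reading were chosen with earlier results of these data known. Alternatives were DESeq2 1.42.0, limma-voom (limma 3.58.1), 3 scalings, 2 filters, a replicate block and libraries left out. P-values measure only the spread between these libraries.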

Additional observations from a re-analysis of the deposited data

How the results depend on the processing

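The count of genes called over the whole table was 0 by label. It became 138 with DESeq2, 0 to 29 with 1 library left out (29 without C1 and 11 without V3) and 3 without C2 and V2, and stayed 0 with limma-voom, the other scalings, both filters and the block. The count among the 10 genes, and that among the pathway lists, was 0 under each of the 15 alternatives. Of the 10 log2 differences, 7 kept their sign under all 15. Nfkb1 turned to -0.011 with upper quartile scaling, -0.041 with library totals and -0.015 without C2 and V2, and ran from -0.019 to 0.027 with 1 library left out. Rel ran from -0.11 to 0.053 and Relb from -0.013 to 0.16 with 1 library left out, and Relb was -0.067 without C2 and V2. The cause was not tested. With the replicate number as a block, Nfkb2 differed by 0.45 (edgeR adjusted p = 0.564) and Nfkbia by 0.57 (edgeR adjusted p = 0.577), and 0 genes were called. Deviations of same-numbered libraries from their label means correlated at -0.153, -0.266 and -0.325, which gives no sign that the numbers pair the libraries. These means use the labels as given, so an exchange of C2 and V2 would change them. Over the 15 alternatives the adjusted p ran from 0.0929 to 0.93 for Nfkb2 and from 0.159 to 0.93 for Nfkbia. Depth limits Nfkbie and Rel most, at 301 to 545 counts.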

Other observations

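Some secreted targets of NF-kB followed the nearest pairs of libraries more than either reading, and were chosen after their values were seen. C3, the central complement gene, was 5.59 CPM in V1 and 7.62 in V2, against 1.44 in C2, 2.59 in C3, 0.664 in C1 and 0.459 in V3. Cxcl5, a neutrophil chemokine gene, was 5.90 and 5.65 CPM in V1 and V2, 2.09 and 3.46 in C2 and C3, and 0.838 and 0.543 in C1 and V3. Both were thus high in V1 and V2 and low in C1 and V3, with log2 differences by label of -1.56 ± 0.85 and -0.94 ± 0.79 (edgeR adjusted p = 0.497 and 0.645). Otulin, which removes linear ubiquitin chains, was 47.0, 34.6 and 41.6 CPM in C1, C2 and C3 and 54.4, 63.6 and 42.5 CPM in V1, V2 and V3. Within the pairs it was 1.11, 1.20 and 1.17-fold higher where Fkbp5 was higher. All 3 intervals lay above 1, as did those of 5.24% of all genes tested, and Otulin too was named after its values were seen.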
